A study of Mus musculus with 2 samples.

Results

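Of 43 interferon response genes compared between reaggregation thymus organ culture (RTOC) and two-dimensional (2D) culture, 41 could be tested. In RTOC 9 were higher, beside 15.47% of all tested genes, and 5 were lower, close to the 12.7% of all tested genes that were lower, and the detection condition fixed the direction of 2 of the 14. The genes that rose included the transcription factors Irf1 and Irf8, the exonuclease gene Isg20 and the GTPase genes Iigp1 and Gbp3. The genes that fell included the transcription factor Irf7 and the ubiquitin-like system genes Isg15 and Usp18, together with the tetherin gene Bst2. The list was set by name, namely every non-control probe that the array or RefSeq assigns to one of the 43 symbols or their older aliases. Probes were found for 42 of the 43 genes, and none carried the name Xaf1. A test required, on each array, a signal well above background in RTOC, in 2D culture or in both, and 41 genes had such a probe, out of 13505 such genes among 19504 named on the array. Irf4, a lymphoid and dendritic cell factor, was not well above background in any channel. The 42 genes were covered by 67 probes, of which 60 were tested.

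The cells were thymic stromal cells of fetal mice, with C57BL/6 given as the strain in the labels of the 2D cultures. Lobes of E14.5 fetuses were kept in organ culture for 8 days and lobes of E15.5 fetuses for 9 days. All lobes were treated with 1.35 mM deoxyguanosine, a nucleoside that depletes thymocytes, so the compound was common to both cultures. The lobes were then dispersed, and the cells were grown for 72 h either flat on a dish (2D culture) or as an aggregate on a membrane (RTOC). Each of 2 arrays held 2D culture in Cy3 and RTOC in Cy5 from 1 stage. The number of fetuses pooled was not given in the sources used here. Dyes were not swapped, so dye and culture cannot be told apart, and neither can stage, days in organ culture and array.

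Interferons are secreted cytokines that bind paired receptor chains and activate JAK kinases and STAT proteins. Type I interferons act mainly through a complex with STAT2 and IRF9 that binds interferon-stimulated response elements (ISRE), whereas interferon-γ acts mainly at gamma-activated sites (GAS). The induced genes encode antiviral effectors and GTPases, and several are also expressed without infection in thymic epithelial cells and in macrophages and dendritic cells.

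In the labelled stromal cells, epithelial, mesenchymal, endothelial and blood cell markers all differed between the cultures. All 10 thymic epithelial markers were well above background in all 4 channels, and 5 were higher in RTOC (Foxn1, Psmb11, Ly75, Dll4 and Krt5) while 2 were lower (Krt14 and Cdh1). Among fibroblast and mesenchyme markers, 3 of 9 were higher and 5 were lower. Endothelial markers were higher for 7 of 8, although only 3 of the 8 were measured in all 4 channels. Of 11 tested macrophage and dendritic cell markers 6 were higher and none was lower, and the median log2 intensity of the 11 was 10.67 and 10.40 in 2D culture and 11.20 and 11.68 in RTOC (E14.5 and E15.5). Of 5 markers of all blood cells 3 were higher, whereas the lymphocyte genes Cd8a, Cd79a and Ms4a1 were not well above background in any channel. In such bulk samples, fewer cells of a type and less RNA per cell cannot be told apart.

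Every ratio below is the log2 of RTOC over 2D culture after quantile normalization, and a gene is represented by its brightest tested probe. A gene passed the test with an adjusted p under 0.05 in limma, fitted to all tested probes with n = 2 arrays. The 14 genes that passed were 34.1% of the 41 tested, and 28.2% of all 13505 genes passed. The median ratio was 0.19 over the 41 genes and 0.00 over all genes. With 2 arrays an exact sign-flip test of a single gene cannot go below a two-sided p of 0.5. The adjusted p borrows its error estimate from all probes. Where cultures are said below not to overlap, this describes the 4 channels of a gene that had already passed. How many of all genes did not overlap was not counted. Mx1 and Oas3 met the detection condition through 1 culture only, which fixed their direction. Without them 8 genes were higher and 4 lower among the 39 measured in all 4 channels. Among all 12073 genes measured in all 4 channels, 1513 were higher and 1476 were lower.

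**Figure D1:**
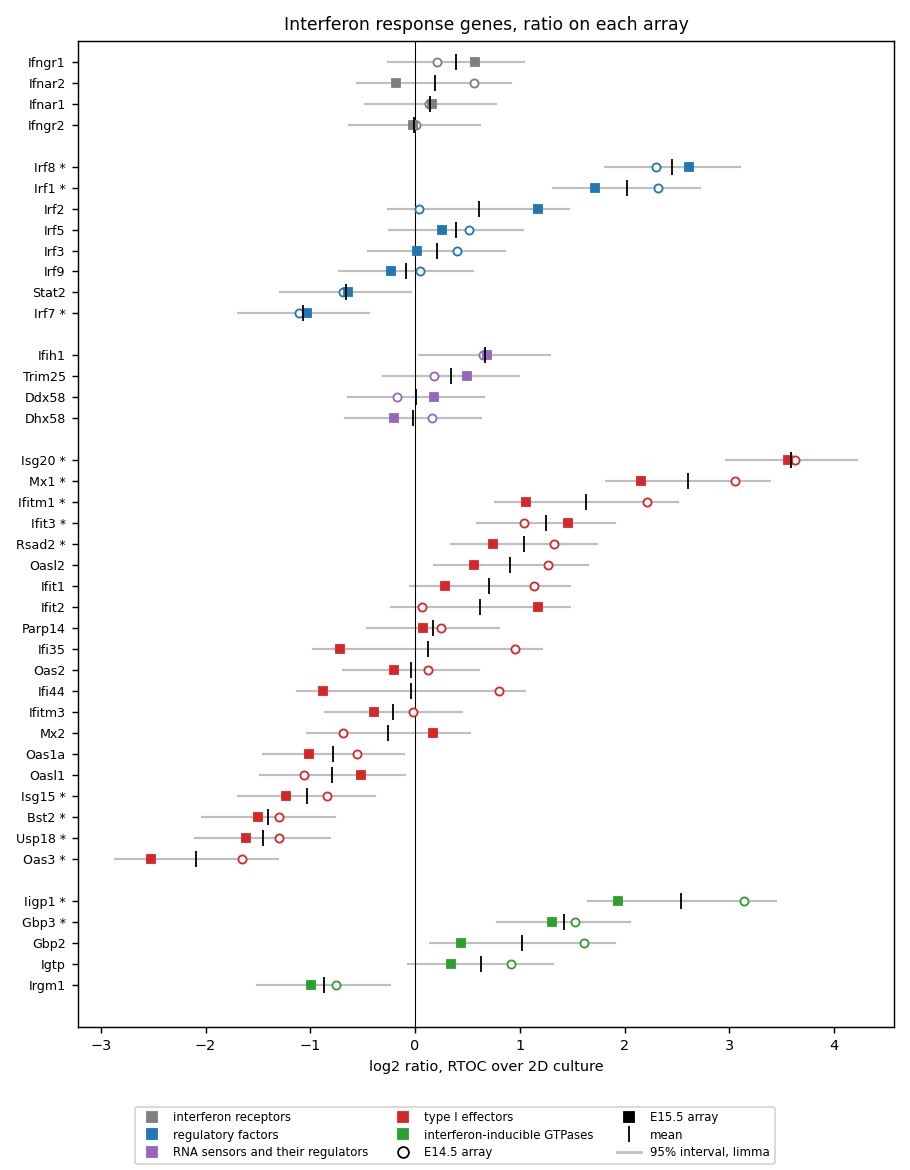
Log2 ratio of RTOC over 2D culture for the 41 tested genes, grouped by role (colour); open circles are the E14.5 array, filled squares the E15.5 array, black ticks the mean and grey lines the 95% interval from limma. Asterisks mark the 14 genes that passed the test, from Isg20 at 3.59 to Usp18 at -1.45 among those measured in all 4 channels; Mx1 and Oas3, each not well above background in 1 culture, are drawn at their fitted values.

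Promoter stretches of genes that passed are given here where they hold the letters that interferon-activated factors are known to bind. RefSeq promoters (GRCm38.p6, 250 bases before to 50 after the start) were matched by symbol for 36 of the 43 genes, and the motif letters searched on both strands were GAAA, any 2 bases and GAAA again for the ISRE, and TTCNNNGAA for the GAS. The following stretches lie before the start site and run 5′ to 3′ along the gene's strand, with matches to either motif in capitals.
Irf1 (chr11:53769912-53769944, plus strand): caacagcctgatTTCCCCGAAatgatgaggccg
Irf8 (chr8:120736175-120736225, plus strand): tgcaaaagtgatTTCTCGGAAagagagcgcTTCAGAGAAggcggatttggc
Isg20 (chr7:78913339-78913371, plus strand): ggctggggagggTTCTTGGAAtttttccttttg
Gbp3 (chr3:142559987-142560026, plus strand): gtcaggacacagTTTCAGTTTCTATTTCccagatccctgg
Ifit3 (chr19:34583361-34583428, plus strand): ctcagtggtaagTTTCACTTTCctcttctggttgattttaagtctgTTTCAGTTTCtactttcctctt
Rsad2 (chr12:26456551-26456584, minus strand): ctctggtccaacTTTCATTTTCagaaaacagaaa
Isg15 (chr4:156200863-156200908, minus strand): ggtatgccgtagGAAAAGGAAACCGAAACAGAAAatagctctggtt
Oas3 (chr5:120777713-120777746, minus strand): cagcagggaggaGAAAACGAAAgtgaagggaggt
Bst2 (chr8:71537575-71537620, minus strand): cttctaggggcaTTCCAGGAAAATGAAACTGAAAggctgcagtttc

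The capitals in Irf1, Irf8 and Isg20, all higher in RTOC, are GAS letters, 1 match in Irf1 at -90 to -82 from the start, 2 matches in Irf8 and 1 in Isg20. Those in Gbp3, Ifit3 and Rsad2, also higher, are ISRE letters. Those in the lower genes Isg15 and Oas3 are ISRE letters too, with 3 overlapping matches in Isg15, and in Bst2 a GAS match overlaps the first of 2 ISRE matches. Neither motif was matched in the windows of Irf7 (lower) and Ifitm1 (higher). Iigp1 and Mx1 (higher) and Usp18 (lower) also passed, but no promoter was matched for them, so their letters were not searched. ISRE letters were present for 16 of the 36 genes (44.4%), against 3.99% of 27025 genes with a promoter in the table, and GAS letters for 12 (33.3%) against 9.55%. By single promoters, which can be several to a gene, 3.44% of 32851 held the ISRE letters and 8.3% the GAS letters. The presence of the letters did not separate higher from lower genes among the tested genes with a promoter. The 16 genes with ISRE letters had a median log2 ratio of 0.31, with 3 higher and 3 lower, and the 18 tested genes without them had a median of 0.28, with 4 higher and 1 lower. The 12 with GAS letters had a median ratio of 0.40, with 3 higher and 1 lower, and the 22 without them had 0.28, with 4 higher and 3 lower. Among the tested genes with a promoter in the table, the ISRE letters were found for 4 of 4 GTPases, 8 of 15 effectors, 2 of 3 sensors, 2 of 8 regulatory factors and none of 4 receptors. A match is a description of letters and not of binding.

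The interferon receptor genes were measured in every channel and none of the 4 passed the test. Their median log2 ratio was 0.17. Ifngr1, the ligand-binding chain of the interferon-γ receptor, had the highest mean log2 ratio, with 0.21 at E14.5 and 0.57 at E15.5 (mean 0.39 ± 0.26 SE, 95% interval -0.26 to 1.04, adjusted p = 0.304). Ifnar2, a chain of the type I receptor, had ratios of opposite sign, 0.56 and -0.18 (mean 0.19, interval -0.55 to 0.92, adjusted p = 0.659). Ifnar1, its partner chain, had 0.13 and 0.16 (mean 0.14, interval -0.48 to 0.77, adjusted p = 0.689), and the Ifngr2 mean was -0.01 with an interval of -0.63 to 0.62. With 2 arrays these intervals give the differences that the data leave possible for each gene. They are not adjusted for the number of probes and are not limits of detection, so not passing does not show equal expression.

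Of 8 tested regulatory factors, 2 were higher, 1 was lower and 5 did not pass. Irf8, a factor that directs macrophage and dendritic cell development, had the highest ratio of the class. Its log2 intensity was 11.35 and 11.28 in 2D culture and 13.65 and 13.88 in RTOC (E14.5 and E15.5), so the cultures did not overlap. The mean log2 ratio was 2.45 ± 0.26 (SE), a 5.48-fold difference (adjusted p = 0.00325), and its other probe gave a mean of 1.75 (adjusted p = 0.00726). The macrophage genes Adgre1, encoding F4/80, and Aif1 were higher alongside, with mean log2 ratios of 3.01 and 2.72. They had the largest ratios of the 11 tested macrophage and dendritic cell markers. Of the 11, 6 were higher and 5 did not pass, among them Itgam at -0.61 and Itgax at -0.04. Ptprc, encoding the pan-blood-cell antigen CD45, was also higher, with 1.88. The part of these cells' genes in the Irf8 result was not tested.

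Irf1, an activator induced by both kinds of interferon, had log2 intensities of 12.12 and 12.92 in 2D culture against 14.43 and 14.65 in RTOC. Both RTOC values lay above both 2D values, with a mean log2 ratio of 2.02 ± 0.28 (SE), or 4.06-fold (adjusted p = 0.00661). The dimmer Irf1 probe gave 0.84 (adjusted p = 0.0882), less by over 1 on the log2 scale and not past the test. Irf7, the amplifier of type I interferon transcription, ran the other way. Its log2 intensity was 9.71 and 9.12 in 2D culture and 8.60 and 8.09 in RTOC, a mean log2 ratio of -1.07 ± 0.25 (SE), or 2.1-fold lower (adjusted p = 0.0299). With another background correction (normexp) and loess normalization the Irf7 mean was -0.49 and no longer passed.

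The remaining factors lay nearer to 0. Irf2, often a repressor of IRF1 targets, had a log2 ratio of 0.04 at E14.5 and 1.17 at E15.5 (mean 0.61 ± 0.35 SE, adjusted p = 0.234), and its log2 intensity in 2D culture was 9.33 and 8.51 while that in RTOC was 9.37 and 9.68. Stat2 and Irf9, whose products act together in the type I complex, had mean log2 ratios of -0.66 (adjusted p = 0.101) and -0.09 (adjusted p = 0.813). The dimmer Irf9 probe had a mean of -1.61 (adjusted p = 0.0142) and was not well above background in RTOC on either array. Set against the lowest signal of probes well above background, after normexp correction and scaling of the channels to each other, that probe was at least 1.17-fold lower in RTOC. Irf3 and Irf5 had means of 0.21 and 0.39, and neither passed.

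**Figure D2:**
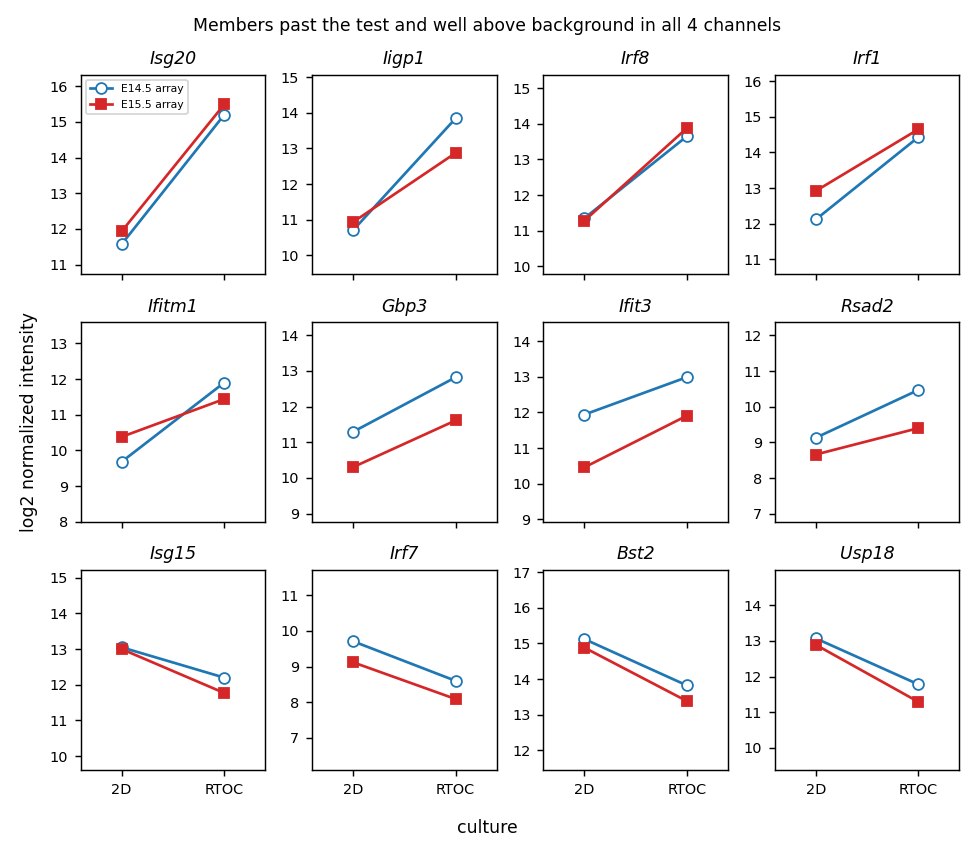
Log2 normalized intensity in 2D culture and RTOC on the E14.5 array (open circles) and the E15.5 array (filled squares) for the 12 genes that passed the test and were well above background in all 4 channels. Each panel spans the same number of log2 units, and levels are not comparable between panels since probes differ; the lines rise for 8 genes and fall for 4 on both arrays.

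None of the 4 RNA sensors and their regulators passed on its brightest probe, and the class median of the log2 ratios was 0.17. Ifih1, encoding the long double-stranded RNA sensor MDA5, had log2 ratios of 0.65 and 0.69 (mean 0.67 ± 0.25 SE, adjusted p = 0.0994). Dhx58, encoding LGP2, had 0.16 and -0.20 (mean -0.02, adjusted p = 0.96). For Trim25, the ubiquitin ligase that acts on RIG-I, the probes went in opposite directions. The brightest probe had a mean log2 ratio of 0.34 ± 0.26 (SE, adjusted p = 0.359), and the other probe had -1.66 and -1.21 on the arrays (mean -1.44 ± 0.27 SE, adjusted p = 0.0159). Both Trim25 probes were well above background in all 4 channels. The 4 probes of Ddx58, encoding RIG-I, gave 0.01 for the brightest and -0.60, -0.96 and -0.82 for the others, none past the test. The sign of the log2 ratio for Trim25 and Ddx58 therefore depended on the probe.

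The type I effectors were split. Of 20 tested, 5 were higher, 4 were lower and 11 did not pass, and their median log2 ratio was 0.04, with 0.19 at E14.5 and -0.06 at E15.5. Among the 18 measured in all 4 channels, 4 were higher and 3 lower. Isg20, encoding an RNA exonuclease, had the largest ratio of all 41 genes. Its log2 intensity was 11.57 and 11.93 in 2D culture and 15.20 and 15.49 in RTOC, so that the mean log2 ratio was 3.59 ± 0.25 (SE), or 12.1-fold (adjusted p = 0.00166). The other Isg20 probe gave a mean of 3.48 (adjusted p = 0.00172). Ifitm1, encoding a membrane protein that limits virus entry, had log2 intensities of 9.68 and 10.38 in 2D culture and 11.90 and 11.44 in RTOC, without overlap. Its log2 ratio was 2.21 at E14.5 and 1.06 at E15.5 (mean 1.63 ± 0.35 SE, 3.1-fold, adjusted p = 0.0234). Under normexp and loess the Ifitm1 mean was 1.29 and did not pass.

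Among effectors that interfere with viral RNA and lipid, Ifit3 and Rsad2 also rose. Ifit3, whose protein stabilizes the RNA-binding IFIT1, had a mean log2 ratio of 1.25 ± 0.26 (SE, adjusted p = 0.0226) and a second probe at 1.16 (adjusted p = 0.0534). Rsad2, encoding viperin, had log2 ratios of 1.33 and 0.74 (mean 1.04, adjusted p = 0.0438), but its other probes gave 0.31 and 0.35 and did not pass. The related Ifit1 and Ifit2 had means of 0.71 (adjusted p = 0.135) and 0.62 (adjusted p = 0.22). The Ifit2 arrays lay apart, with a log2 ratio of 0.07 at E14.5 and 1.17 at E15.5, and the second Ifit2 probe had 0.20 and 1.91. In 2D culture the Ifit2 log2 intensity was 9.06 and 7.59, and in RTOC it was 9.14 and 8.75, so the stages differed more in 2D culture than in RTOC.

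Isg15 and Usp18, the ubiquitin-like modifier and the protease that removes it and also dampens type I receptor signalling, both fell. Usp18 had log2 intensities of 13.07 and 12.89 in 2D culture and 11.78 and 11.29 in RTOC, a mean log2 ratio of -1.45 ± 0.26 (SE), or 2.74-fold lower (adjusted p = 0.0139). For Isg15 the log2 intensity was 13.05 and 13.00 in 2D culture and 12.20 and 11.77 in RTOC (mean log2 ratio -1.03 ± 0.26 SE, 2.05-fold lower, adjusted p = 0.0372). Uba7, which encodes the activating enzyme for ISG15 and is not among the 43 genes, was higher (mean log2 ratio 1.75, adjusted p = 0.0106), and Ube2l6, encoding the conjugating enzyme, had a mean of -0.19 (adjusted p = 0.599). Bst2, encoding tetherin, fell by a similar amount to Usp18, from 15.12 and 14.88 to 13.82 and 13.38 in log2 intensity (mean log2 ratio -1.40 ± 0.25 SE, 2.63-fold lower, adjusted p = 0.0146). The values of the 2 cultures did not overlap for these 3 genes.

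In the oligoadenylate synthetase family, whose enzymes respond to double-stranded RNA, no gene passed as higher among all tested probes. The tested Oas3 probe had a mean log2 ratio of -2.09 (adjusted p = 0.00811), but it was not well above background in RTOC on either array. By the bound described for Irf9 this probe was at least 1.17-fold lower. The other Oas3 probe was well above background only in RTOC at E15.5 and was not tested. Its log2 ratios had opposite signs, -1.76 at E14.5 and 0.57 at E15.5. Oas1a and Oasl1 had mean log2 ratios of -0.78 (adjusted p = 0.0803) and -0.79 (adjusted p = 0.083), Oas2 had -0.04 (adjusted p = 0.921) and Oasl2 had 0.91 (adjusted p = 0.0679), with a higher value in RTOC on both arrays. Oasl2 passed as higher where the fit was restricted to probes well above background in all 4 channels.

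Mx1, a dynamin-like antiviral GTPase that is defective in C57BL/6 and most inbred strains, was well above background only in RTOC. Its mean log2 ratio of 2.60 (adjusted p = 0.00447) corresponds to at least 1.13-fold higher in RTOC by the same bound, and its other probe was not well above background in any channel. Mx2 had log2 ratios of -0.69 and 0.17. Ifi35 and Ifi44, interferon-induced genes with regulatory and antiviral roles, had the widest gap between the arrays. Ifi35 went from 0.95 at E14.5 to -0.72 at E15.5 (mean 0.12 ± 0.44 SE, adjusted p = 0.859), and Ifi44 from 0.80 to -0.88 (mean -0.04 ± 0.44 SE, adjusted p = 0.951). The other Ifi44 probe had ratios of 0.87 and -0.04, a mean of 0.41. Ifitm3 and Parp14 had means of -0.21 and 0.17, and neither passed.

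The interferon-inducible GTPases, which attack the membranes around intracellular pathogens, had the highest median log2 ratio of the classes, 1.02 over 5 genes, with 2 higher and none lower. The median was 1.53 at E14.5 and 0.44 at E15.5. Iigp1 had log2 intensities of 10.70 and 10.93 in 2D culture and 13.84 and 12.87 in RTOC. Its log2 ratio was 3.14 at E14.5 and 1.94 at E15.5 (mean 2.54 ± 0.36 SE, 5.82-fold, adjusted p = 0.00696). The probe for Gbp3, which the array's design names Gbp4, had log2 intensities of 11.29 and 10.30 in 2D culture and 12.82 and 11.61 in RTOC (mean log2 ratio 1.42 ± 0.25 SE, 2.67-fold, adjusted p = 0.0142). Within each array RTOC was above 2D culture for Iigp1 and Gbp3, and the smallest RTOC value also exceeded the largest 2D value. Guanylate-binding protein genes have near-identical copies, so the assignment of signal between them is uncertain.

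Gbp2 did not pass, with log2 ratios of 1.61 at E14.5 and 0.44 at E15.5 (mean 1.02 ± 0.35 SE, adjusted p = 0.0816). Igtp, encoding Irgm3, had 0.92 and 0.34 (mean 0.63, adjusted p = 0.145). Irgm1, which restrains the other immunity-related GTPases, was the exception in sign. Its log2 intensity was 13.23 and 13.29 in 2D culture and 12.48 and 12.30 in RTOC, and its probes gave mean log2 ratios of -0.87 (adjusted p = 0.0537) and -0.88 (adjusted p = 0.0534), just short of the threshold. Irgm1 passed as lower in 5 of 8 alternative fits, namely normexp and loess, no quantile step, median centring, detection in all 4 channels and the trended robust variance.

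**Figure D3:**
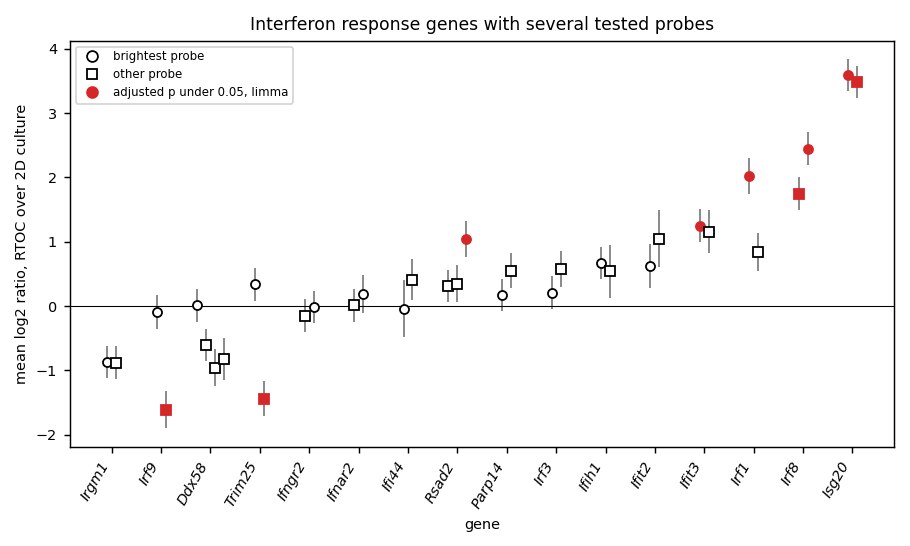
Mean log2 ratio of RTOC over 2D culture for each tested probe of the 16 genes with several tested probes; circles are the brightest probe, squares the others, bars the standard error from limma, and red marks an adjusted p under 0.05. The Isg20 probes lie together at 3.59 and 3.48, whereas those of Trim25 lie on either side of 0 at 0.34 and -1.44.

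The ratio was higher on the E14.5 array for 28 of the 41 genes (68.3%), against 48.5% of all tested genes. This held for 5 of 5 GTPases and 16 of 20 effectors, and for 4 of 8 regulatory factors and 1 of 4 sensors. The arrays lay at least 1 log2 unit apart for 7 of the 41 genes, and 13.7% of all genes were this far apart. At E14.5 the ratio was the higher for Iigp1, Gbp2, Ifi35, Ifi44 and Ifitm1, and at E15.5 for Irf2 and Ifit2. The signs were opposite for 9 genes, against 20.3% of all genes. With a single array a stage these differences were not tested, and of the 39 genes measured in all 4 channels 10 were at least 2-fold different in the same direction on both arrays (25.6%, against 17% of 12073 such genes).

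**Figure D4:**
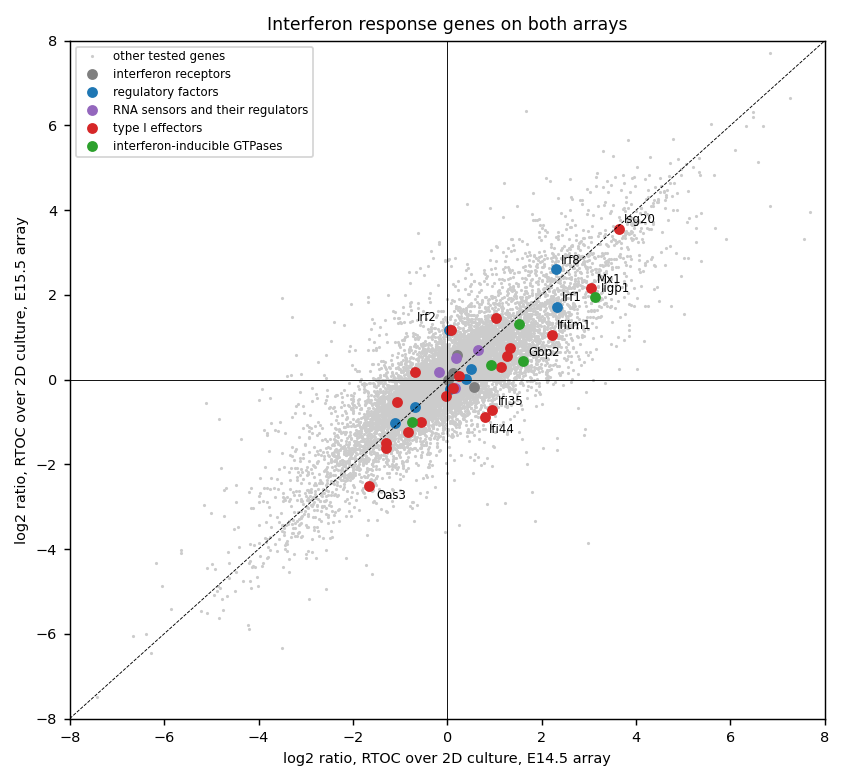
Log2 ratio of RTOC over 2D culture on the E14.5 array (horizontal) against the E15.5 array (vertical) for the 41 tested genes, coloured by role, over all other tested genes in grey; the dashed line marks equal ratios. Isg20 lies on the line at 3.63 and 3.56, and Iigp1, Ifitm1 and Gbp2 lie below it.

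In the rest of the pathway the interferons themselves were mostly at the limit of detection. Of 18 interferon genes 15 had a probe and 5 could be tested, and Ifnb1 and Ifng were not well above background in any channel. Ifna12 was well above background in RTOC alone, which fixed its direction, and was at least 1.12-fold higher (fitted mean log2 ratio 1.26). Ifna13 and Ifnab had means of -0.54 (adjusted p = 0.158) and -0.47 (adjusted p = 0.209). These genes have near-identical copies, so signal cannot be assigned to a single one with certainty.

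Of 10 tested genes for further receptors, kinases and transcription, 2 were higher and 1 was lower. The corepressor gene Irf2bp2 had a mean log2 ratio of 1.34 (adjusted p = 0.0169), and its relative Irf2bpl had -1.23 (adjusted p = 0.0315). Jak1, Jak2 and Tyk2 did not pass. Among 8 feedback inhibitors 2 were higher, namely Ptpn6, encoding the phosphatase SHP-1 of blood cells (1.77, adjusted p = 0.0159), and Cish (1.11, adjusted p = 0.0296). Ptpn11, encoding SHP-2, had a mean log2 ratio of -0.80 (adjusted p = 0.0652) and passed as lower in 4 of 8 alternative fits. Of 10 tested sensing adaptors and kinases, Sting1, the adaptor of cytosolic DNA sensing, was lower (-1.25, adjusted p = 0.0203) and Tlr7, an endosomal RNA receptor, was higher (1.14, adjusted p = 0.0485), while Tlr3 had -1.10 (adjusted p = 0.0592) and passed as lower in 1 of 8.

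A list of 56 further induced effectors gave 45 tested genes, of which 16 were higher and 3 were lower (42.2% in all), with a median log2 ratio of 0.36. Ifi27l2a had log2 intensities of 10.17 and 8.90 in 2D culture and 14.42 and 13.38 in RTOC (mean log2 ratio 4.37, adjusted p = 0.00159). The chemokine genes Cxcl9 and Cxcl11, of the family of CXCR3 ligands and typical interferon-γ targets, were well above background in RTOC alone, which fixed their direction, and were at least 1.35-fold and 1.31-fold higher (fitted mean log2 ratios 3.18 and 3.13). Only 38 of the 45 were measured in all 4 channels, and of those 11 were higher and 1 was lower.

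The calls rested on the error shared across probes. Treating the 4 channels as unpaired, without the array as a block, left 6 higher and 3 lower genes, and Irf7, Isg15, Gbp3, Ifit3 and Rsad2 no longer passed. Under normexp and loess 6 were higher and 4 lower, and the genes that no longer passed were Irf7, Mx1, Oas3, Rsad2 and Ifitm1, with mean log2 ratios of 0.23 for Mx1, -0.23 for Oas3 and 0.72 for Rsad2, while Irgm1 passed as lower. Of the other pathway genes, Cish, Irf2bp2, Irf2bpl and Sting1 did not pass without the block, Cxcl9 and Cxcl11 did not under normexp and loess (0.43 and 0.46), and Ifna12 and Tlr7 did not under either. Without a filter on dim probes, or with the methods' t-test, no named gene passed on its brightest probe.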

How the data were processed

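RNA of RTOC (Cy5) and 2D culture (Cy3) was hybridized to 2 Agilent two-colour arrays on 1 slide, scanned at the same time. The authors extracted spot values with Feature Extraction (11.5.1.1 in the submitters' processing notes, 9.1.3.1 in the file headers), and the labels and methods differ on the RNA kit. The deposited files hold background-subtracted, dye-normalized processed signals as an intensity for each channel. The deposited log10 ratios equal the log10 of Cy5 over Cy3 processed signals and were used as a check of direction only. The authors' p-values of single arrays were not used.

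Control spots and outlier spots (5 and 1) were left out, leaving 41174 probes. The intensity deposited by the authors was taken to log2, quantile normalized over the 4 channels, as the methods name, and subtracted within arrays. Probes were named through RefSeq by accession (22944), symbol (6664) or older symbol (3108), and 8458 had no name. Probes that on each array exceeded background clearly in RTOC, in 2D culture or in both (23685) were fitted with limma 3.58.1 in R 4.3.3 (lmFit and eBayes, Benjamini-Hochberg). The arrays are replicates of 1 comparison, although stage differs. With 2 arrays, precision is limited by their number, not by counting. Simulated data held 23685 probes, of which 200 were changed. The fit recovered 0.597% of probes changed by 1, 33.8% by 2 and 98.4% by 4 log2 units, and 9.26% of calls were false. In the real data 6831 probes passed, far more than the 200 simulated, so these rates need not hold for the calls reported here.

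In every class the 3 genes with the largest mean, genes whose probes disagreed and genes whose arrays lay at least 1 apart are given in full. Genes named beyond this, such as Bst2, Isg15, Irgm1, Uba7 and Ube2l6, were chosen after their values were seen. The genes and lists were chosen with earlier results of these data known. Alternatives were other background and normalization steps, other filters, unpaired channels, another variance model, the methods' t-test, all probes of a gene, and each array alone. Some values are not reported here.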

Additional observations from a re-analysis of the deposited data

Results flagged for a closer look

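The 9 genes whose log2 ratio was positive on 1 array and negative on the other are listed with the difference, E14.5 minus E15.5. With 1 array a stage, the difference was not tested for any of them. It was 1.68 for Ifi35 and also 1.68 for Ifi44, 0.74 for Ifnar2, 0.36 for Dhx58, 0.32 for Oas2, 0.27 for Irf9 and 0.03 for Ifngr2. It was -0.86 for Mx2 and -0.35 for Ddx58, where the E15.5 ratio was the higher. None of the 9 passed the test of the mean.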

How the results depend on the processing

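Signs of all 14 genes that passed were kept wherever they were tested. Changing only the filter, the block, the variance model or the test left their means as they were. In those settings the sign could not turn. The number passing, 9 higher and 5 lower, stayed within 1.5 times on normexp and loess, median centring, omission of the quantile step, detection in all channels and the trended robust variance, where Ifit3 and Rsad2 did not pass. Without a filter on dim probes and with the methods' t-test it was 0 and 0. At an unadjusted p under 0.05 there were 9 higher and 7 lower genes without the filter, and 4 higher and 3 lower with the t-test. The share of all genes at that unadjusted p was not counted, so these numbers cannot be set against the whole array. Without the array as a block the lower genes numbered 3. Median log2 ratios moved beyond the spread of the arrays: normexp and loess gave 0.16 over the 41 genes and 0.21 for regulatory factors, no filter gave 0.21 and the median over all probes 0.39 for regulatory factors and -0.28 for sensors. Leaving out each array in turn gave 0.07 to 0.17 for receptors, -0.06 to 0.19 for effectors, 0.14 to 0.22 for regulatory factors and 0.17 to 0.34 for sensors.

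Signs turned for genes near 0. Under normexp and loess Oas2 was 0.02, Ifi44 0.09, Ddx58 -0.05 and Dhx58 0.02. Without the quantile step and with median centring Oas2 was 0.02 and Ifngr2 0.00, and Ddx58 was -0.01 and -0.02. The median over all probes was 0.19 for Ifi44, -0.71 for Ddx58 and -0.55 for Trim25. With single arrays the ranges were -0.23 to 0.05 for Irf9, -0.69 to 0.17 for Mx2, -0.20 to 0.12 for Oas2, -0.72 to 0.95 for Ifi35, -0.88 to 0.80 for Ifi44, -0.17 to 0.18 for Ddx58, -0.20 to 0.16 for Dhx58, -0.02 to 0.01 for Ifngr2 and -0.18 to 0.56 for Ifnar2. The cause was not tested.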
